A study of Rattus norvegicus with 6 samples.

Results

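Interferon-stimulated genes and the receptors, factors and sensors around them were examined in L5 dorsal root ganglia (DRG) of rats after L5 spinal nerve transection (SNT). Of 56 genes listed, 35 were measured on the array by a transcript cluster (the set of exon probes that together stand for a gene) annotated to exactly 1 symbol, out of 13215 such genes and 19418 clusters in all. The list follows known roles in the interferon response, but it was chosen with earlier results of these data known. Each measured gene had 1 such cluster. The 21 listed genes not analysed here were Ifnar2, Irf3, Irf7, Nlrc5, Ifih1, Ddx58, Dhx58, Eif2ak2, Oas3, Ifitm1, Gbp1, Gbp4, Gbp5, Igtp, Tgtp1, Usp18, Herc6, Trim21, Parp12, Ifi44l and Xaf1. Irf3 was found only on a cluster with several symbols. As a result the cytosolic RNA sensors were almost entirely outside the measured set, and Gbp2 alone stood for the guanylate-binding proteins.

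The tissue was the L5 DRG of male Wistar rats, taken 7 days after SNT or from naive animals, with 3 pools of 4 animals per group and 1 Affymetrix Rat Exon 1.0 ST array per pool. The control animals were naive and no sham-operated group was included, so that surgery and transection cannot be told apart. A DRG holds sensory neurons among glial, vascular, connective tissue and immune cells, and in RNA from the whole ganglion more cells of a type and more RNA per cell cannot be told apart. Expression is given on a log2 scale, where a difference of 1 is a doubling, and differences are SNT minus naive with the standard error (SE), tested across all clusters with limma and Benjamini-Hochberg adjustment.

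Interferons are cytokines that cells release on sensing foreign or misplaced nucleic acid. Type I interferons (the alpha and beta forms) bind the receptor made of Ifnar1 and Ifnar2, and interferon gamma, released mainly by T and natural killer cells, binds that of Ifngr1 and Ifngr2. Janus kinases and STAT factors carry both signals to the nucleus. Type I signalling acts through the interferon-stimulated response element (ISRE) of antiviral genes such as the Mx, Oas and Ifit families, whereas interferon gamma acts through the gamma-activated site (GAS) of genes such as Irf1. The guanylate-binding proteins and immunity-related GTPases are known as strongly gamma-inducible genes.

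After SNT 16 of the 35 genes rose and 2 fell at a false discovery rate (FDR) of 0.1, against 19.9% of all genes higher and 18.3% lower. The other 17 did not pass. Gbp2 (3.33-fold), Ifi47 (2.81-fold), Trim25 (2.09-fold) and Irf1 (2.09-fold) were the 4 genes with a fold change of 2 or more, a size reached upward by 2.5% of all genes. Cmpk2 and Ifi27 fell, neither by as much as 2-fold, and 3.07% of all genes fell that far. The median log2 fold change was 0.47, beside 0.07 over all genes, and 32 of 35 genes had a positive difference. In 16 genes every SNT array lay above every naive array, against 28.6% of all genes, and in 2 every SNT array lay below, against 23%. The first 16 were not quite those that rose: Mx2 rose with overlapping groups, and Isg20 did not overlap and missed the threshold. The heat map of differences from the naive mean shows the 3 SNT arrays apart from each other, and they are therefore given one by one below.

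**Figure D1:**
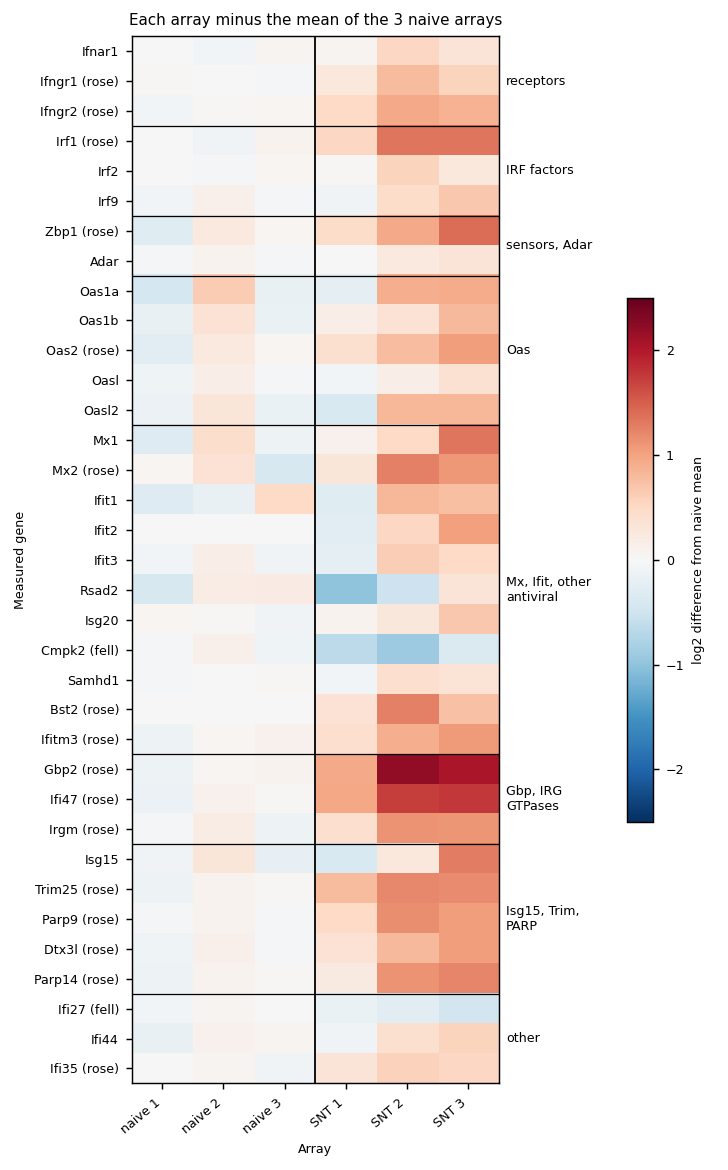
Difference of each array from the mean of the 3 naive arrays (colour, log2 units) for the 35 measured genes in rows, grouped by role, with the 3 naive arrays left of the vertical line and the 3 SNT arrays right of it; genes past FDR 0.1 are marked as rose or fell. SNT replicate 1 is the palest of the SNT columns, with a median difference of 0.11, beside 0.78 and 0.83 for SNT replicates 2 and 3.

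SNT replicate 1 was the lowest SNT array for 33 of the 35 genes and for 35.4% of all genes. The exceptions were Cmpk2, lowest on SNT replicate 2, and Ifi27, lowest on SNT replicate 3. Relative to the naive mean the median difference of the 35 genes was 0.11 on SNT replicate 1, 0.78 on SNT replicate 2 and 0.83 on SNT replicate 3, whereas over all genes it was 0.07, 0.05 and 0.04. On SNT replicate 1, 16 genes lay above all 3 naive arrays (49.1% of all genes did) and 9 below them (33.1% of all genes). On SNT replicate 2 30 lay above (46.6% of all genes) and 3 below (34.5% of all genes), and on SNT replicate 3 33 above (45.2% of all genes) and 2 below (35.2% of all genes). Irf9, Oas1a, Oasl, Oasl2, Ifit1, Ifit2, Ifit3, Samhd1, Isg15 and Ifi44 fell on opposite sides, below the naive mean on SNT replicate 1 and above it on the other SNT arrays. That pattern held for 10 of the 35 genes and for 6.9% of all genes. The SD between SNT arrays exceeded that between naive arrays in 35 of 35 genes, with medians of 0.36 and 0.12, and in 78.5% of all genes.

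When SNT replicate 1 was left out, 29 genes passed FDR 0.1 upward (23.2% of all genes did) and 2 downward (20.4% of all genes), and the median log2 fold change was 0.79. All 18 genes called on 6 arrays were called again, with 13 more, namely Ifnar1, Irf2, Irf9, Adar, Oas1a, Oasl2, Mx1, Ifit1, Ifit2, Ifit3, Isg20, Samhd1 and Ifi44. Oas1b, Oasl, Isg15 and Rsad2 did not pass without it either. As SNT replicate 1 was the lowest SNT array for 33 of the 35 genes, leaving it out had to raise their fold changes. The further calls rest on SNT replicates 2 and 3 alone and are no independent support. Leaving out any other array gave 11 to 14 genes upward. Across all clusters the correlation of SNT replicate 1 with SNT replicates 2 and 3 was 0.982 and that between the latter 0.99. With the naive arrays SNT replicate 1 correlated at 0.978 to 0.981, almost as closely as with the other SNT arrays, whereas SNT replicates 2 and 3 did so at 0.957 to 0.969. The injury genes Atf3 (11.36, 11.52 and 11.63 in SNT replicates 1 to 3) and Sprr1a (10.15, 10.24 and 10.73) were raised on all 3 SNT arrays, against 7.74, 7.69 and 7.74 and 4.39, 4.51 and 4.67 in naive replicates 1 to 3.

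Cell type markers moved between the same arrays, though not for every cell type. Among all genes, for comparison, 19.9% rose and 18.3% fell. SNT replicate 1 was the lowest SNT array for 35.4% of all genes. SNT replicate 2 was the highest for 28.9% and SNT replicate 3 for 27.1%. The macrophage and monocyte markers rose in 14 of 14 cases, lay lowest among the SNT arrays on SNT replicate 1 in 14 cases and highest on SNT replicate 2 in 13, with median differences of 1.16, 2.19 and 1.65 on SNT replicates 1 to 3. Their mean log2 level ranged from 7.13 to 7.54 on naive and from 8.70 to 9.68 on SNT arrays. Markers of natural killer and T cells rose in 7 of 10 cases, with medians of 0.36, 1.05 and 0.58 and a mean level of 5.42 to 5.49 on naive and 6.37 to 7.05 on SNT arrays. Of 11 sensory neuron markers 7 fell and 0 rose, with medians of -0.44, -0.98 and -0.64 and a mean level of 11.54 to 11.64 on naive and 10.38 to 11.17 on SNT arrays. The interferon-related genes were highest on SNT replicate 3 in 19 cases and on SNT replicate 2 in 15. Fibroblast markers rose in 3 of 4 cases and were lowest among the SNT arrays on SNT replicate 1 in 4 and highest on SNT replicate 3 in 3, with a mean level of 10.53 to 10.94 on naive arrays and of 11.06, 11.39 and 11.41 on SNT replicates 1 to 3. The 3 skeletal muscle markers stood highest on SNT replicate 3, with a mean level of 8.47 there, beside 7.40 and 7.44 on the other SNT arrays and 7.57 to 7.72 on naive arrays. Of 5 neutrophil markers 1 rose and 4 had a negative difference, and of 3 B cell markers 1 rose and 2 had a negative difference. Satellite glia markers rose in 2 of 5 cases and fell in 2. Schwann cell markers rose in 2 of 5 cases and were highest on SNT replicate 3 in 5. Endothelial markers rose in 1 of 3 cases. The part of these cell types in the differences below was not tested.

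**Figure D2:**
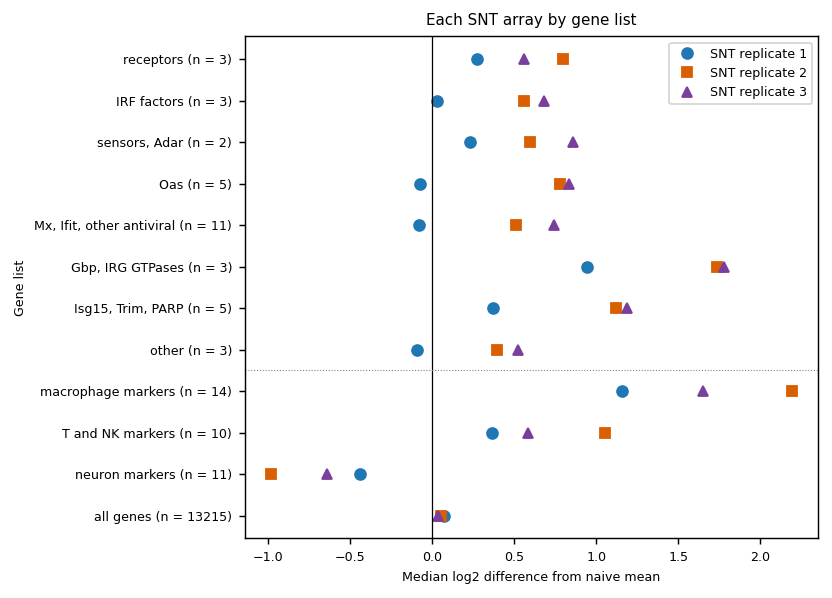
Median log2 difference from the naive mean (horizontal axis) on SNT replicates 1, 2 and 3 for each role group, for markers of macrophages, of T and natural killer (NK) cells and of sensory neurons, and for all genes. SNT replicate 1 lies nearest 0 in the role groups; the Oas enzymes are at -0.07, 0.78 and 0.83 and the Gbp and immunity-related GTPases at 0.94, 1.73 and 1.78.

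Promoter sequence was available for 27 of the 35 genes (RefSeq, GRCr8). The 250 bases before the annotated start were searched on both strands for the ISRE core, which is GAAA, any pair of bases and GAAA again, and for the GAS core TTCNNNGAA, whose pattern reads the same on both strands. An ISRE core was found in 13 of the 27 promoters and a GAS core in 10, compared with 3.41% and 7.67% of 33469 rat promoters of the same length. The ISRE core was present in 5 of 13 promoters of genes that rose, in 7 of 12 of genes not called and in 1 of 2 of genes that fell. The GAS core was present in 6, 4 and 0 of them. At least 1 of the cores was present in 7, 9 and 1 of them. Among the 27 it was so in 17, compared with 10.6% of all promoters. Of the genes that fell, Cmpk2 held neither core. A match is a run of letters, not a measured binding site, and since the list consists of interferon-responsive genes its share of matches was not tested. The promoters of 6 genes are shown, all of which hold a match, so they do not stand for the promoters without 1. They place beside each other genes that rose (Irf1, Gbp2, Irgm), genes whose SNT arrays disagreed (Oas1a, Ifit3) and a gene that fell (Ifi27). Each runs 5′ to 3′ on the gene's strand up to the base before the start, with matches in capitals.
Irf1: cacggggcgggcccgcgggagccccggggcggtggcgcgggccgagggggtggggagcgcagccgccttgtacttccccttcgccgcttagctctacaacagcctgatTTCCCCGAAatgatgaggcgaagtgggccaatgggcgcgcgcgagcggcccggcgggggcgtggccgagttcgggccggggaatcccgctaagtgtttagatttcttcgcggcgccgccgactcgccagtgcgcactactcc
Gbp2: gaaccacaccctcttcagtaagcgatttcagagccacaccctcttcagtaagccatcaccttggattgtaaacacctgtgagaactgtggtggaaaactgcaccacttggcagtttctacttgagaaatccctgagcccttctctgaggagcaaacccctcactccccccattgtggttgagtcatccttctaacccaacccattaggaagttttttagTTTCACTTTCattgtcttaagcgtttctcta
Irgm: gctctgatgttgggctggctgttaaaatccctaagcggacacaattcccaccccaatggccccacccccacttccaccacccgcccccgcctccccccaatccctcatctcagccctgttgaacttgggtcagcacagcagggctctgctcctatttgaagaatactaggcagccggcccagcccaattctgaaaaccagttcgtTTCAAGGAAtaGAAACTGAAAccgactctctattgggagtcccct
Oas1a: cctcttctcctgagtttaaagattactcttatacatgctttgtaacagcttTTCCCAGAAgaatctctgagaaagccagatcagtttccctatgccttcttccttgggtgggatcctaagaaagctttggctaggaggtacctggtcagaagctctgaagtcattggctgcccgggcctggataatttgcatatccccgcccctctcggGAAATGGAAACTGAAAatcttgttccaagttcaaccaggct
Ifit3: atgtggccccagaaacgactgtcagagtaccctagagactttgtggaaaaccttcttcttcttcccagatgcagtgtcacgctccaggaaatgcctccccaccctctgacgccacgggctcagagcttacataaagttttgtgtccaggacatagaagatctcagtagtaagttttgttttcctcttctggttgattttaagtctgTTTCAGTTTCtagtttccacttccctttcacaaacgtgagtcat
Ifi27: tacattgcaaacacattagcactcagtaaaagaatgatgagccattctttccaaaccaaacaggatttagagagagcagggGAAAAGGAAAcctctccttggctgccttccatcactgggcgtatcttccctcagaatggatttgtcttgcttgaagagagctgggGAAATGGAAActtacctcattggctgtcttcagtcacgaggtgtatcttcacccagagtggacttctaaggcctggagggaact
They lie at chr10:38417685-38417934 (+ strand) for Irf1, chr2:234005477-234005726 (+ strand) for Gbp2, chr10:33742579-33742828 (- strand) for Irgm, chr12:41330216-41330465 (+ strand) for Oas1a, chr1:241527076-241527325 (+ strand) for Ifit3 and chr6:128355062-128355311 (+ strand) for Ifi27. The capitals of Irf1 are a GAS core 142 to 134 bases before the start. In Gbp2 they are an ISRE core on the opposite strand at 31 to 22 bases, in Irgm a GAS core and an ISRE core at 45 to 37 and 34 to 25 bases, and in Ifit3 an ISRE core on the opposite strand at 44 to 35 bases. Oas1a holds a pair of ISRE cores that overlap each other, at 41 to 26 bases, and a GAS core further out. Ifi27 holds ISRE cores at 169 to 160 and at 84 to 75 bases. Bst2 was the only one of the 27 in which an ISRE and a GAS core overlapped.

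Among the receptors, both gamma receptor chains rose. Ifngr1, the ligand-binding chain, stood at 9.82, 9.79 and 9.77 in naive replicates 1 to 3 and at 10.07, 10.60 and 10.36 in SNT replicates 1 to 3. No SNT array overlapped the naive arrays, and the log2 fold change was 0.54 ± 0.14, adjusted p = 0.0304. Ifngr2, the signalling chain, stood at 8.88, 8.97 and 9.01 in naive and at 9.45, 9.91 and 9.82 in SNT pools, again without overlap (0.77 ± 0.13, adjusted p = 0.0102). Ifnar1, a chain of the type I receptor, stood at 8.12, 8.05 and 8.18 and at 8.18, 8.64 and 8.43, with SNT replicate 1 inside the naive range, and did not pass (0.30 ± 0.13, adjusted p = 0.132; without SNT replicate 1 0.42, adjusted p = 0.02). Ifnar1 and Ifngr2 are neighbouring genes on chromosome 11 in the RefSeq table. The 3 promoter sequences of these receptors held neither core.

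Of 3 interferon regulatory factors, Irf1 rose (19.9% of all genes did). Irf1, a transcription factor that is itself induced by interferon gamma and that activates many genes of the response, stood at 7.26, 7.16 and 7.33 in naive and at 7.76, 8.59 and 8.58 in SNT pools. SNT replicates 2 and 3 lay close together and above SNT replicate 1, which in turn lay above all naive arrays (1.06 ± 0.22, adjusted p = 0.0178, 2.09-fold). Irf9, a DNA-binding factor of the type I response, stood at 7.96, 8.16 and 7.98 and at 7.95, 8.50 and 8.71, so that SNT replicate 1 lay below the lowest naive array (0.35 ± 0.19, adjusted p = 0.234). Irf2, known as a competitor of Irf1 at the same sites, stood at 7.95, 7.90 and 7.99 and at 7.97, 8.51 and 8.20 (0.28 ± 0.14, adjusted p = 0.19). Without SNT replicate 1 both passed, Irf9 at 0.57 (adjusted p = 0.0114) and Irf2 at 0.41 (adjusted p = 0.0373).

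The measured sensors were Zbp1, which binds left-handed (Z-form) nucleic acid and can trigger cell death, and Adar, which edits adenosine to inosine in double-stranded RNA and thereby keeps cellular RNA from being sensed. Zbp1 stood at 6.20, 6.75 and 6.56 in naive and at 6.96, 7.45 and 7.90 in SNT pools and rose without overlap (0.94 ± 0.25, adjusted p = 0.0384). The call was lost without naive replicate 1 (0.78, adjusted p = 0.128), the lowest of the naive arrays. Adar stood at 8.32, 8.45 and 8.32 and at 8.36, 8.60 and 8.68 and did not pass (0.19 ± 0.10, adjusted p = 0.248; without SNT replicate 1 0.28, adjusted p = 0.0493).

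Oas enzymes make short oligoadenylates on binding double-stranded RNA, which activate the nuclease RNase L. Of the 5 measured, only Oas2 rose, a share like the 19.9% of all genes that did. Its level was 5.13, 5.67 and 5.46 in naive and 5.81, 6.20 and 6.46 in SNT pools, with no overlap (0.74 ± 0.20, adjusted p = 0.0395), and the call was lost without naive replicate 1 (0.59, adjusted p = 0.127), after quantile normalisation of the deposited values (0.61, adjusted p = 0.109) and after cyclic loess (0.61, adjusted p = 0.104). Oas1a stood at 7.54, 8.60 and 7.79 in naive and at 7.73, 8.88 and 8.91 in SNT pools. Here naive replicate 2 was high, near SNT replicates 2 and 3, and SNT replicate 1 was low, among the other naive arrays (0.53 ± 0.39, adjusted p = 0.368). Without SNT replicate 1 its fold change was 0.92 and it passed (adjusted p = 0.0767). Oas1b had the same high naive replicate 2, at 6.47, 7.04 and 6.50 in naive and 6.83, 7.03 and 7.49 in SNT pools (0.45 ± 0.21, adjusted p = 0.184). Oasl2 stood at 7.04, 7.49 and 7.01 in naive and at 6.80, 8.01 and 8.01 in SNT pools (0.43 ± 0.34, adjusted p = 0.396; without SNT replicate 1 0.83, adjusted p = 0.0124). Oasl, whose rodent gene is a neighbour of Oasl2 on chromosome 12, stood at 7.06, 7.34 and 7.12 and at 7.10, 7.34 and 7.56 (0.16 ± 0.14, adjusted p = 0.431). Naive replicate 2 was the highest naive array for 5 of 5 Oas genes, for 22 of the 35 genes overall and for 41.7% of all genes. Oas1a and Oas1b lie among related Oas1 genes on chromosome 12, and their probes may share signal.

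Of 11 antiviral effectors 3 rose and 1 fell, beside 19.9% and 18.3% of all genes. Mx1 and Mx2 are dynamin-like GTPases that block viral replication. Mx2 stood at 8.48, 8.79 and 8.03 in naive and at 8.72, 9.69 and 9.51 in SNT pools, and SNT replicate 1 lay just below naive replicate 2 (0.88 ± 0.29, adjusted p = 0.0734). This call was lost when the naive array 1 or 3 was left out, at 0.90 (adjusted p = 0.166) and 0.68 (adjusted p = 0.197), when SNT array 2 or 3 was, at 0.69 (adjusted p = 0.178) and 0.78 (adjusted p = 0.162), and with each array centred on its median (0.79, adjusted p = 0.127). Mx1, its paralogue, stood at 6.67, 7.43 and 6.85 in naive and at 7.09, 7.48 and 8.33 in SNT pools, where naive replicate 2 was close to SNT replicate 2 and SNT replicate 3 stood alone at the top (0.65 ± 0.34, adjusted p = 0.212; without SNT replicate 1 0.92, adjusted p = 0.0846).

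Ifitm3 and Bst2 act at membranes, Ifitm3 by hindering fusion of entering viruses and Bst2 (tetherin) by holding budding virus at the cell surface. Ifitm3 stood at 10.35, 10.53 and 10.59 in naive and at 10.90, 11.39 and 11.56 in SNT pools and rose without overlap (0.80 ± 0.17, adjusted p = 0.0203). Bst2 stood at 5.33, 5.34 and 5.35 in naive pools, closely together, and at 5.69, 6.60 and 6.08 in SNT pools (0.79 ± 0.21, adjusted p = 0.0398). All 3 SNT arrays lay above the naive range of Bst2, though the SNT arrays differed widely among themselves. Its call was lost without naive replicate 1, 2 or 3 (adjusted p = 0.117, 0.113 and 0.103), after quantile normalisation (0.66, adjusted p = 0.115) and after cyclic loess (0.66, adjusted p = 0.106). It passed without SNT replicate 2 (0.55, adjusted p = 0.0439).

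The Ifit proteins, which bind viral RNA ends, showed the split between SNT arrays and no call. Ifit1 stood at 7.29, 7.43 and 8.10 in naive and at 7.31, 8.44 and 8.36 in SNT pools (0.43 ± 0.35, adjusted p = 0.406), so that SNT replicate 1 sat with the low naive arrays. Ifit2 stood at 6.98, 6.97 and 6.95, a narrow range, in naive and at 6.71, 7.48 and 7.99 in SNT pools (0.42 ± 0.29, adjusted p = 0.334). Ifit3 stood at 5.18, 5.43 and 5.17 and at 5.04, 5.88 and 5.77 (0.31 ± 0.22, adjusted p = 0.36). SNT replicate 1 was below all 3 naive arrays for Ifit2 and Ifit3 and SNT replicates 2 and 3 were above all 3 for each Ifit gene. Without SNT replicate 1 Ifit1 (0.79, adjusted p = 0.0599), Ifit2 (0.77, adjusted p = 0.0146) and Ifit3 (0.57, adjusted p = 0.0126) passed. The promoter of Ifit3, printed above, and that of Oas1a hold ISRE cores within 50 bases of the start.

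Cmpk2 and Rsad2 are neighbours on chromosome 6. Rsad2 (viperin) makes a chain-terminating nucleotide and Cmpk2, a mitochondrial nucleotide kinase, phosphorylates pyrimidine nucleotides. Cmpk2 stood at 8.78, 8.93 and 8.68 in naive and at 8.14, 7.89 and 8.44 in SNT pools. Every SNT array lay below every naive array, with SNT replicate 2 the lowest (-0.64 ± 0.15, adjusted p = 0.0255, 1.56-fold lower). Rsad2 stood at 7.51, 8.11 and 8.12 in naive and at 6.92, 7.40 and 8.24 in SNT pools, where SNT replicates 1 and 2 lay below all naive arrays and SNT replicate 3 above them (-0.39 ± 0.34, adjusted p = 0.438; without SNT replicate 3 -0.75, adjusted p = 0.0839). Isg20, an exonuclease of RNA, stood at 7.66, 7.63 and 7.52 and at 7.70, 7.88 and 8.29, and Samhd1, which depletes deoxynucleotides, at 6.75, 6.76 and 6.81 and at 6.70, 7.19 and 7.11. The SNT arrays of Isg20 lay above the naive arrays by a small step and those of Samhd1 on both sides, with 0.35 ± 0.15, adjusted p = 0.145 for Isg20 and 0.22 ± 0.14, adjusted p = 0.278 for Samhd1. Both passed without SNT replicate 1 (0.48, adjusted p = 0.0415, and 0.38, adjusted p = 0.0117).

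The GTPases known for their induction by interferon gamma rose in 3 of 3 cases, beside 19.9% of all genes. They held the widest differences among the role groups. Gbp2, a guanylate-binding protein that coats vacuoles of intracellular pathogens, stood at 8.35, 8.52 and 8.57 in naive and at 9.42, 10.70 and 10.52 in SNT pools. SNT replicate 1 was about 1 unit above the naive arrays and the other SNT arrays about 2 units (1.74 ± 0.32, adjusted p = 0.0123, 3.33-fold). Ifi47, an immunity-related GTPase of rodents, stood at 7.29, 7.54 and 7.47 and at 8.39, 9.17 and 9.21, likewise without overlap (1.49 ± 0.22, adjusted p = 0.0074, 2.81-fold). Irgm, another member of that family that in mice regulates the others, stood at 7.31, 7.53 and 7.22 and at 7.77, 8.48 and 8.46 (0.89 ± 0.20, adjusted p = 0.0242, 1.85-fold). The promoters of Gbp2 and Irgm, shown above, hold an ISRE core within 50 bases of the start, and that of Ifi47 holds a pair of GAS cores. These calls held in each of the 15 alternative analyses, though taking the most variable cluster could not change them, as each gene had 1 cluster.

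**Figure D3:**
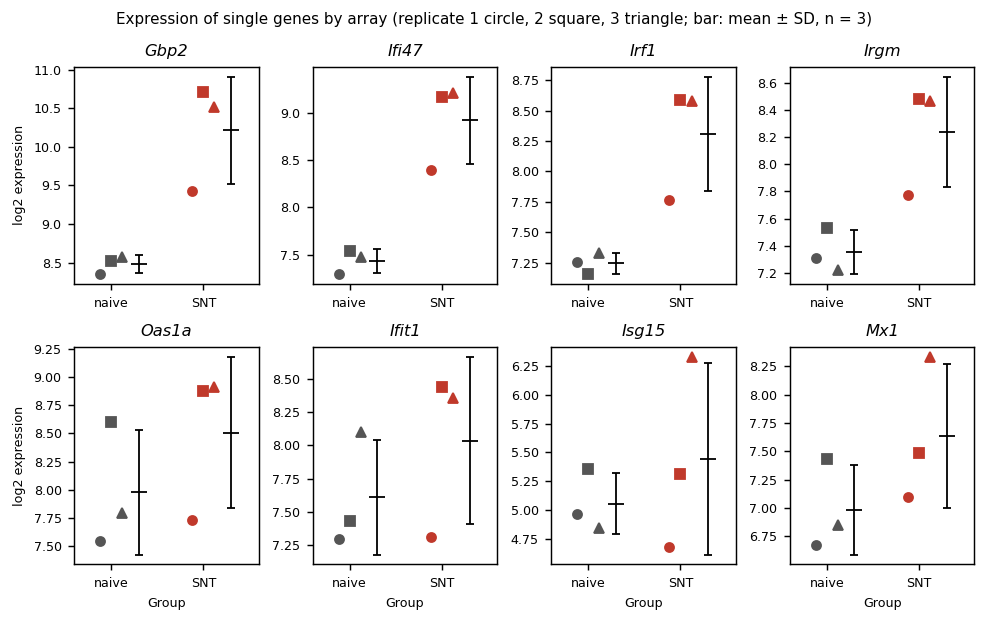
Expression on a log2 scale (vertical axis; scales differ between panels) on each of the 3 naive (grey) and 3 SNT (red) arrays, with the mean and SD (n = 3), for 4 genes that rose (top row) and 4 that did not pass (bottom row). In the top row SNT replicate 1 (circle) lies below the other SNT arrays and above all naive arrays, for example at 9.42 in Gbp2; in the bottom row it lies within the naive range or below it, for example at 4.68 in Isg15.

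Of 5 genes of protein tagging 4 rose, beside 19.9% of all genes. Trim25, a ubiquitin ligase known for acting on the RNA sensor RIG-I, stood at 7.87, 8.07 and 8.02 in naive and at 8.79, 9.20 and 9.17 in SNT pools (1.06 ± 0.13, adjusted p = 0.00544, 2.09-fold). It had the smallest adjusted p of the 35 genes. Parp9, Dtx3l and Parp14 are neighbours on chromosome 11, and Parp9 forms a complex with the ubiquitin ligase Dtx3l. Parp9 stood at 6.25, 6.36 and 6.24 in naive and at 6.78, 7.45 and 7.32 in SNT pools (0.90 ± 0.17, adjusted p = 0.0143). Dtx3l stood at 7.08, 7.30 and 7.15 and at 7.54, 7.995 and 8.21 (0.74 ± 0.17, adjusted p = 0.0251). Parp14, an ADP-ribosyltransferase, stood at 6.89, 7.10 and 7.05 and at 7.24, 8.13 and 8.23 (0.85 ± 0.26, adjusted p = 0.0546). For all 3 neighbours the SNT and naive arrays did not overlap. The call of Parp14 was the least firm, being lost without naive replicate 1, 2 or 3 (adjusted p = 0.162, 0.122 and 0.124), without SNT replicate 2 or 3 (adjusted p = 0.141 and 0.126) and after median centring (0.76, adjusted p = 0.103).

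Isg15, the ubiquitin-like protein after which the process of ISGylation is named and a classic marker of the type I response, did not pass. It stood at 4.96, 5.36 and 4.85 in naive and at 4.68, 5.32 and 6.33 in SNT pools (0.39 ± 0.39, adjusted p = 0.507). SNT replicate 1 was the lowest of the 6 arrays, SNT replicate 2 lay within the naive range and SNT replicate 3 stood well above the highest naive array. Its 95% confidence interval ran from -0.55 to 1.32, and without SNT replicate 3 the difference was -0.06, adjusted p = 0.879.

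Among the remaining genes Ifi35, a leucine zipper protein, rose and Ifi27 fell. Ifi35 stood at 6.26, 6.32 and 6.16 in naive and at 6.56, 6.82 and 6.76 in SNT pools (0.47 ± 0.10, adjusted p = 0.0169). Ifi27, a small hydrophobic mitochondrial protein, stood at 11.46, 11.59 and 11.54 in naive and at 11.36, 11.25 and 11.08 in SNT pools, each SNT array below each naive array (-0.30 ± 0.10, adjusted p = 0.0668, 1.23-fold lower). The call, though not the direction, was lost without naive replicate 1, 2 or 3, at -0.34, -0.27 and -0.30 (adjusted p = 0.137, 0.196 and 0.173), without SNT replicate 2 or 3, at -0.31 and -0.23 (adjusted p = 0.118 and 0.134), with the replicate number as a block (-0.30, adjusted p = 0.143), after quantile normalisation (-0.18, adjusted p = 0.323) and after cyclic loess (-0.14, adjusted p = 0.43). Ifi44 stood at 6.88, 7.17 and 7.12 and at 6.96, 7.45 and 7.61 (0.29 ± 0.18, adjusted p = 0.289; without SNT replicate 1 0.48, adjusted p = 0.0279).

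**Figure D4:**
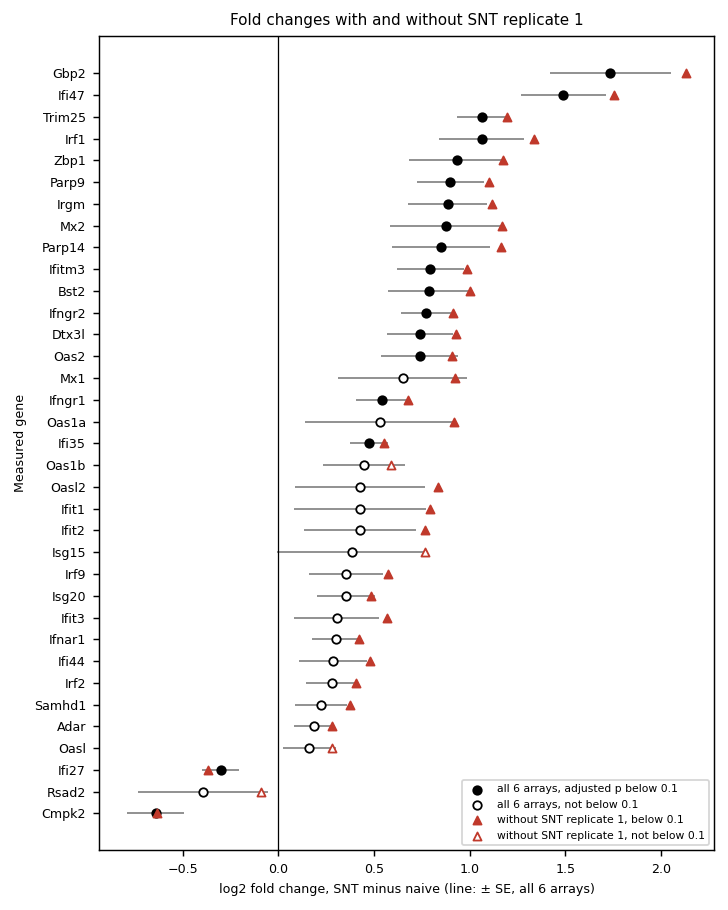
Log2 fold change, SNT minus naive (horizontal axis), of the 35 genes on all 6 arrays (circles, line ± SE) and without SNT replicate 1 (triangles), filled where the adjusted p is below 0.1. Of the filled symbols 16 circles and 29 triangles lie above 0, and Gbp2 has the largest value in both, at 1.74 and 2.13.

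Other genes of the pathway gave 24 rises and 1 fall among 36 measured, with a median log2 fold change of 0.49. Among all genes 19.9% rose and 18.3% fell. The interferons themselves did not pass in any of 5 cases. Ifna5, Ifng, Ifnb1 and Ifna1 were dim, at percentiles 0.6, 7.6, 10.9 and 11.9 of mean level among all genes, whereas Ifnl3 was at 73.9. In the dim genes a change could be missed, so the lack of a call does not show that they were unchanged. Nor does it for Ifnl3, at 7.87, 8.12 and 7.91 in naive and 8.72, 8.35 and 7.855 in SNT pools (0.34 ± 0.21, adjusted p = 0.287). Its SNT replicates 1 and 2 lay above all naive arrays and SNT replicate 3 below them. Without SNT replicate 3 Ifnl3 passed (0.57, adjusted p = 0.0491). Ifnb1 stood at 4.03, 4.44 and 4.16 in naive and at 4.56, 4.39 and 4.08 in SNT pools (0.14 ± 0.16, adjusted p = 0.563), and Ifng, the gamma interferon, at 4.03, 3.86 and 3.96 and at 4.16, 4.13 and 3.99 (0.15 ± 0.09, adjusted p = 0.268). The ligands were the only pathway group in which SNT replicate 1 was the highest SNT array in every case (5 of 5). Among all genes SNT replicate 1 was the highest SNT array for 44%. SNT replicate 1 also had the highest array median, 6.31, beside 6.11 to 6.21 on the other arrays. Of Janus kinases and STAT factors Jak2, the kinase of the gamma receptor, rose (0.95 ± 0.17, adjusted p = 0.0123), Stat2 and Stat3 rose (0.41 ± 0.14, adjusted p = 0.0794 and 0.28 ± 0.09, adjusted p = 0.0549) and Jak1, used by both receptor types, fell (-0.24 ± 0.08, adjusted p = 0.0676). Regulators that damp the signal rose in 4 of 5 cases, namely Socs3 (2.20 ± 0.43, adjusted p = 0.0148), Socs1 (0.46 ± 0.17, adjusted p = 0.0951) and the phosphatases Ptpn2 (0.69 ± 0.22, adjusted p = 0.0648) and Ptpn6 (0.98 ± 0.23, adjusted p = 0.0243). The calls of Stat2, Stat3, Jak1, Socs1 and Ptpn2 were lost when any 1 of the naive arrays was left out. Without naive replicate 1 the adjusted p was 0.212 for Stat2, 0.161 for Stat3, 0.214 for Jak1, 0.193 for Socs1 and 0.143 for Ptpn2.

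The interferon-inducible chemokines, which attract T cells, rose in 3 of 3 cases. They belong to a list with the antigen processing genes below, of which 7 of 9 measured genes rose. Beside these counts and those that follow, 19.9% of all genes rose. Cxcl9, typical of interferon gamma, stood at 6.34, 6.33 and 6.60 in naive and at 7.80, 8.98 and 9.12 in SNT pools (2.21 ± 0.34, adjusted p = 0.00775). Cxcl10 stood at 7.24, 8.07 and 7.14 and at 8.45, 9.66 and 10.14 (1.94 ± 0.45, adjusted p = 0.0252), again with naive replicate 2 the highest naive array. Cxcl11 rose as well (1.52 ± 0.28, adjusted p = 0.0122). SNT replicate 1 lay above all naive arrays for each of these chemokines and below the other SNT arrays. Ciita, the master regulator of class II antigen presentation, rose (0.79 ± 0.10, adjusted p = 0.00552), as did the immunoproteasome subunit Psmb9 (0.95 ± 0.13, adjusted p = 0.00677) and the peptide transporter chains Tap1 and Tap2 (0.66 ± 0.13, adjusted p = 0.0145 and 0.58 ± 0.10, adjusted p = 0.00948). Psmb8, another immunoproteasome subunit, lay within the naive range on SNT replicate 1 and did not pass (0.73 ± 0.32, adjusted p = 0.147; without SNT replicate 1 1.11, adjusted p = 0.00387), and B2m, the light chain of class I molecules, stood at 12.67, 12.61 and 12.67 and at 12.57, 12.69 and 12.71 (0.00 ± 0.08, adjusted p = 0.981). Other interferon regulatory factors and their partners rose in 3 of 3 cases, Irf8 (1.86 ± 0.24, adjusted p = 0.00565), Irf5 (0.84 ± 0.13, adjusted p = 0.00798) and Irf2bp1 (0.50 ± 0.11, adjusted p = 0.02). Other sensors rose in 3 of 3 cases, the endosomal RNA sensor Tlr3 (1.09 ± 0.26, adjusted p = 0.0271), the DNA sensor Aim2 (0.41 ± 0.14, adjusted p = 0.076) and Nod2 (0.31 ± 0.10, adjusted p = 0.0778). Of 7 adaptors and kinases of nucleic acid sensing 4 rose, the adaptors Myd88 (0.93 ± 0.16, adjusted p = 0.0102) and Ticam1 (0.30 ± 0.10, adjusted p = 0.0854) and, counted with them, the NF-kB subunits Rela (0.77 ± 0.11, adjusted p = 0.00708) and Nfkb1 (0.49 ± 0.10, adjusted p = 0.0163). Mavs and Traf6 did not pass (0.05 ± 0.09, adjusted p = 0.712 and 0.11 ± 0.08, adjusted p = 0.371), nor did Traf3, whose SNT arrays all lay below the naive arrays (-0.24 ± 0.10, adjusted p = 0.134; without SNT replicate 1 -0.33, adjusted p = 0.0339). The calls of Aim2, Nod2 and Ticam1 were also lost when any 1 of the naive arrays was left out (adjusted p = 0.213, 0.236 and 0.201 without naive replicate 1). The macrophage markers rose on the same arrays, and their part in these rises was not tested.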

How the data were processed

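Polyadenylated RNA from 6 pools of L5 DRG, 3 naive and 3 SNT with 4 rats each, was hybridised to 1 exon array per pool. The deposited values were log2 expression per transcript cluster, which the authors made with the oligo package by robust multi-array averaging (background correction, quantile normalisation and median polish). The methods describe matrices at several probeset confidence levels and the use of core and extended probesets, and do not say which level the deposited table holds. Tool versions were not given in the sources used here. Probe names came from the platform annotation: 13327 of 19418 clusters carried 1 symbol, 620 several and 5471 none, and a gene with several clusters was represented by that of highest mean. A linear model with moderated variances (limma 3.58.1, R 4.3.3) was fitted to all 19418 clusters, comparing SNT with naive without a fold filter, at a Benjamini-Hochberg FDR of 0.1. It was also run on simulated data drawn with the same spread in SNT and naive arrays. In these data the SNT arrays spread more, so that run cannot vouch for the calls here. With 3 arrays per group an exact permutation test of a single gene cannot go below p = 0.1. By rule, array values were given for listed genes past the threshold or with an absolute log2 fold change of at least 0.5, for up to 3 others per role by highest mean, and pathway genes were named where past the threshold. The remaining listed genes, Ifnb1, Ifng, Ifnl3, B2m, Psmb8, Mavs, Traf3 and Traf6 were shown in addition, after their values were seen. The genes and lists were chosen with earlier results of these data known. Fold changes between genes of a family that share sequence (Oas, Mx, Ifit, Ifitm, Ifi27) may include cross-hybridisation. Array intensities give no read depth, so that the number of arrays limits the precision. RNA sequencing of these pools was not analysed here.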

Additional observations from a re-analysis of the deposited data

How the results depend on the processing

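The count of genes that rose (16) was 28 with array weights, in which SNT replicate 1 had a weight of 0.27, and ranged from 11 to 29 when each array was left out, the highest being without SNT replicate 1 and the lowest without naive replicate 1. The count that fell (2) was 1 after quantile normalisation, after cyclic loess and at an FDR of 0.05, and ranged from 1 to 2 when each array was left out. The median log2 fold change ranged from 0.30 to 0.79. Pools with the same replicate number did not deviate together (r = -0.075, -0.149 and 0.054), so the numbers were not taken to pair the samples, and with the replicate number as a block 16 genes rose and 1 fell. Among the 35 genes 1 direction was reversed, that of Isg15, which ranged from -0.057 without SNT replicate 3 to 0.767 without SNT replicate 1. Among pathway genes, uncalled differences near 0 changed sign after median centring for Ifna5 (-0.016), Ptpn11 (-0.078), Mavs (-0.04) and B2m (-0.085) and after quantile normalisation and cyclic loess for Ifna5 (-0.005 and -0.02). When each array was left out, Ifna1 ranged from -0.04 to 0.386, Ptpn11 from -0.019 to 0.05 and B2m from -0.023 to 0.047. Ifngr1, Ifngr2, Irf1, Cmpk2, Ifitm3, Gbp2, Ifi47, Irgm, Trim25, Parp9, Dtx3l and Ifi35 were called in all 15 alternatives. Among these, taking the most variable cluster of each gene could not change a call, since each of the 35 genes had 1 cluster. With 3 arrays per group, differences as small as those of Ifi27 could not be settled.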
